A study of Mus musculus with 4 samples.

Results

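The Egr, Klf and Ier serum response genes are 10 genes selected by symbol: Egr1, Egr2, Egr3, Klf2, Klf4, Klf6, Klf10, Ier2, Ier3 and Srf. All 10 were found among the 23366 genes of the RNA-seq table, each in 1 row. They were followed across 4 cultures of an immortalized fibroblast line, made from mouse embryos and grown in medium with 10% serum. The cultures carried Myc, MycN, a protein labelled Minimal Myc, or an empty vector. All 4, the vector culture included, received Cre recombinase from an adenovirus and a recovery given as 48 without a unit, and the series design describes the comparison as one with cells whose Myc was deleted. Each group is 1 library. Differences therefore have no replicate error, no test was run, and no p-value is given. The labels do not say how the line was immortalized, from which gene Minimal Myc was made, or whether each culture is a clone. Levels are in FPKM, fragments scaled to transcript length and library size, which carry no read depth.

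These genes belong to the early transcriptional response to serum. Growth factors in serum activate the Erk kinases, which phosphorylate the Ets-family ternary complex factors, partners of the serum response factor Srf. Other partners of Srf are the actin-regulated Mkl proteins. Srf binds a DNA element called the CArG box. Egr and Klf proteins are zinc finger transcription factors that bind GC-rich DNA. Ier2 and Ier3 are short immediate early genes without introns or with few. In fibroblasts given fresh serum after starvation the response is brief.

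The libraries were first compared with their labels. Myc was 141 FPKM in the Myc library, 4.36 in MycN, 32.6 in Minimal Myc and 22.2 in vector. Mycn was 0.275 FPKM in Myc, 178 in MycN, 95.9 in Minimal Myc and 0.390 in vector. The vector library thus still held Myc transcript, more than the MycN library. Where a Myc protein was added, its transcript and that of the cell's own gene cannot be told apart in these values. Of 10 fibroblast markers 9 averaged 1 FPKM or more across the libraries, with summed levels of 2292 FPKM in Myc, 1679 in MycN, 2157 in Minimal Myc and 1723 in vector. Lum was the marker below that mean and is listed at 0 in vector. None of 6 endothelial and 7 epithelial markers reached it. Summed endothelial markers were 0.548 FPKM in Myc, 0.648 in MycN, 0.146 in Minimal Myc and 1.21 in vector. Summed epithelial markers were 0.667, 0.729, 0.140 and 0.517 FPKM in the same order. Endothelial and epithelial cells express Klf2 and Klf4 strongly, and whether such cells add to the levels of these genes was not tested. Of 7 immune markers 1 averaged 1 FPKM or more (Cd68), and of 6 neural markers 2 did (Tubb3 and Syt1). In a culture measured in bulk, fewer cells that express a gene and less RNA per cell cannot be told apart.

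A shift of all genes lies under each difference from vector. Differences are those of log2(FPKM + 1), which makes differences of weakly expressed genes look smaller. A gene is counted at 2-fold where this difference is at least 1 or at most -1, so a gene of low level can be 2-fold apart in FPKM and not be counted. Over the 11640 genes that averaged 1 FPKM or more the median difference from vector was 0.47 with Myc, 0.42 with MycN and 0.47 with Minimal Myc. In the authors' second table, in which each library was multiplied by 1 factor, it was 1.42, 0.76 and 0.80. A difference is therefore also given after subtraction of the median of all genes, called relative to all genes below. Small RNA genes, left out of these medians, summed to 73283 FPKM in Myc, 91983 in MycN, 59269 in Minimal Myc and 230044 in vector, and their part in the shift was not tested.

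In the unscaled table the Egr genes and Klf4 differed most between the cultures, and in the scaled one Klf4 spanned the least of the 10 genes, 1.69-fold. In the unscaled table the 3 Egr genes were highest with Minimal Myc and lowest with Myc, and Klf4 was highest in vector. In the authors' scaled table, described above as the second, Minimal Myc was still highest for the Egr genes and vector for Klf4, but Egr1 was lowest in MycN. Of the 9 genes past the level filter 0 were at least 2-fold higher in Myc than in vector, where 11.2% of all genes were, and 1 was at least 2-fold lower, against 1.56% of all genes. In MycN the counts were 0 higher (7.65% of all genes) and 1 lower (1.86%). In Minimal Myc they were 1 higher (13.6%) and 1 lower (1.68%). The lower gene was Klf4 in all 3 comparisons, which share the vector library, and the higher one was Egr1. The median difference of the 9 genes from vector was 0.11 with Myc, 0.37 with MycN and 0.14 with Minimal Myc, each below the median of all genes. Relative to all genes the counts were 0 higher (1.87% of all genes) and 3 lower (4.38%) with Myc, with Egr1 and Egr3 beside Klf4. They were 0 higher (1.86%) and 3 lower (4.19%) with MycN, with Egr1 and Klf2 beside Klf4, and 0 higher (3.71%) and 1 lower (4.68%) with Minimal Myc. In the authors' scaled table, 5 of the 9 were at least 2-fold higher in Myc than in vector, where 78.5% of all genes were, and 0 lower (0.498%). There, 2 were higher (27.4%) and 0 lower (1.25%) in MycN, and 4 higher (33.7%) and 0 lower (1.05%) in Minimal Myc. Across the 4 libraries of the unscaled table, 4 of the 9 genes spanned at least 2-fold, against 30% of all genes. They were Egr1, Egr3, Klf4 and Klf2.

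**Figure D1:**
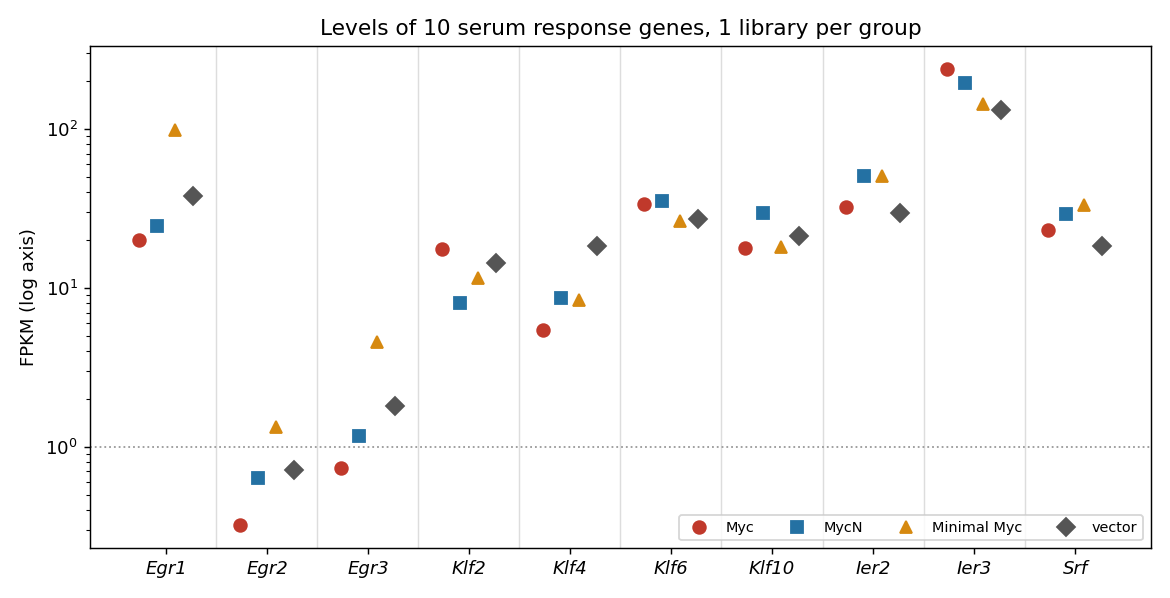
FPKM of the 10 genes on a log axis, with 1 point per library: Myc (circles), MycN (squares), Minimal Myc (triangles) and vector (diamonds). The dotted line marks 1 FPKM. The 3 Egr genes share one order of libraries with Minimal Myc on top, Klf4 is highest in vector at 18.3 FPKM, and Ier3 is the most abundant gene in each library.

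Egr1, a zinc finger factor that growth factors switch on within minutes, was 20.1 FPKM in Myc, 24.5 in MycN, 97.9 in Minimal Myc and 37.9 in vector. The Minimal Myc culture stood 2.58-fold above vector, the next highest library. Its difference from vector was 1.35, or 0.87 relative to all genes. In Myc and MycN the differences from vector were -0.88 and -0.61, or -1.35 and -1.03 relative to all genes. The sign in Myc depends on the scaling, since the authors' second table gave 0.11 there and -0.24 in MycN. Between the proteins, Minimal Myc was 4.86-fold above Myc and 3.99-fold above MycN, with differences of 2.23 and 1.95. In the second table they were 1.59 and 1.95. Egr1 lay above 92.3% of genes in the Minimal Myc library, against 64.5% in Myc, 71.3% in MycN and 87.0% in vector.

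Egr3, a relative of Egr1 with a closely similar DNA-binding region, had the same order of libraries at a far lower level. It was 0.736 FPKM in Myc, 1.16 in MycN, 4.55 in Minimal Myc and 1.82 in vector. Minimal Myc was 2.50-fold above vector in FPKM, and the difference of 0.98 lay just under the 2-fold line because of the pseudocount of 1. With a pseudocount of 0.1 it was 1.28, and 17.3% of all genes were then counted as higher. Myc was at 0.404 times the vector level of Egr3, which with the pseudocount of 1 was not counted either and with 0.1 was, as were 2.6% of all genes. Against Myc and MycN the Minimal Myc culture was higher by 1.68 and 1.36. Egr2, which directs myelination in Schwann cells, was 0.323 FPKM in Myc, 0.638 in MycN, 1.34 in Minimal Myc and 0.719 in vector. Its mean of 0.755 FPKM is under the filter, so it enters no count. Its order of libraries was that of Egr1 and Egr3, though its difference of -0.07 for MycN against vector was 0.09 in the second table. At these levels the precision is unknown, because FPKM hold no counts.

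Egr1 and Egr3 made up the 2 of 9 genes at least 2-fold higher in Minimal Myc than in Myc, where 4.48% of all genes were, and the 2 of 9 higher than in MycN, where 6.94% were. None of the 9 was at least 2-fold lower in either comparison, against 2.16% and 3.69% of all genes. In the second table, 3 were lower in Minimal Myc than in Myc, against 17.7% of all genes. These comparisons share the Minimal Myc library.

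The Klf genes did not follow a common order. Klf4, a factor of growth arrest and of pluripotency, was 5.43 FPKM in Myc, 8.63 in MycN, 8.42 in Minimal Myc and 18.3 in vector. All 3 cultures with a Myc protein lay below vector, at 0.296, 0.471 and 0.459 times its level. The differences were -1.59, -1.01 and -1.04, and relative to all genes -2.06, -1.42 and -1.51. In the authors' second table Klf4 was still lower than vector in all 3, by differences of -0.68, -0.66 and -0.71, none of them 2-fold. MycN and Minimal Myc were close to each other, with a difference of -0.03 for Minimal Myc against MycN.

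Klf2, known from quiescent T cells and from endothelium under flow, was 17.6 FPKM in Myc, 8.09 in MycN, 11.6 in Minimal Myc and 14.4 in vector. The MycN culture was lowest. MycN against Myc gave -1.04, which made Klf2 the 1 of 9 genes at least 2-fold lower in that comparison, where 2.74% of all genes were, while 0 were higher, against 1.95% of all genes. Relative to all genes that difference was -0.98, so that 0 of 9 genes were 2-fold lower, against 2.34% of all genes, and 0 higher, against 2.29%. Against vector, Klf2 differed by 0.27 with Myc, -0.77 with MycN and -0.30 with Minimal Myc. Relative to all genes it lay below in each, at -0.20, -1.18 and -0.77. The second table gave 1.26 with Myc, -0.42 with MycN and 0.04 with Minimal Myc.

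In the unscaled table Klf6 and Klf10 varied less. Klf6, which is induced in injured tissue, was 33.9 FPKM in Myc, 35.2 in MycN, 26.2 in Minimal Myc and 27.1 in vector. Its whole range was 1.34-fold, the smallest of the 10 genes in that table, and 2.55-fold in the second table. Klf6 differed from vector by 0.31 in Myc and 0.37 in MycN, and both signs turned once the median difference of all genes was subtracted (-0.16 and -0.05). The difference of -0.05 for Minimal Myc against vector was 0.30 in the second table. Klf10, a gene induced by Tgfb that dampens growth, was 17.7 FPKM in Myc, 29.5 in MycN, 18.1 in Minimal Myc and 21.2 in vector. MycN was the high library for Klf10, by 1.39-fold over vector, with a difference of 0.45 that is 0.04 relative to all genes. In Myc and Minimal Myc, Klf10 differed from vector by -0.25 and -0.22, and both signs turned in the second table (0.74 and 0.13).

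Ier3 was the most abundant of the 10 genes in every library. Ier3, a short gene linked to survival under stress, was 239 FPKM in Myc, 193 in MycN, 145 in Minimal Myc and 131 in vector. It lay above at least 94.97% of genes in every library, and the Myc culture was highest. The differences from vector were 0.86, 0.55 and 0.14, or 0.39, 0.13 and -0.34 relative to all genes. In the second table they were 1.89, 0.93 and 0.50. Ier3 spanned 1.82-fold across the libraries of the unscaled table and 3.72-fold in the second. Ier2, an immediate early nuclear protein, was 32.2 FPKM in Myc, 50.5 in MycN, 50.5 in Minimal Myc and 29.8 in vector. MycN and Minimal Myc were almost equal, both 1.70-fold above vector, while Myc was 1.08-fold above it. After subtraction of the median the differences were -0.37 with Myc, 0.32 with MycN and 0.27 with Minimal Myc. In the second table the 3 cultures were alike at 65.6, 65.7 and 64.9 scaled FPKM, against 29.8 in vector.

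**Figure D2:**
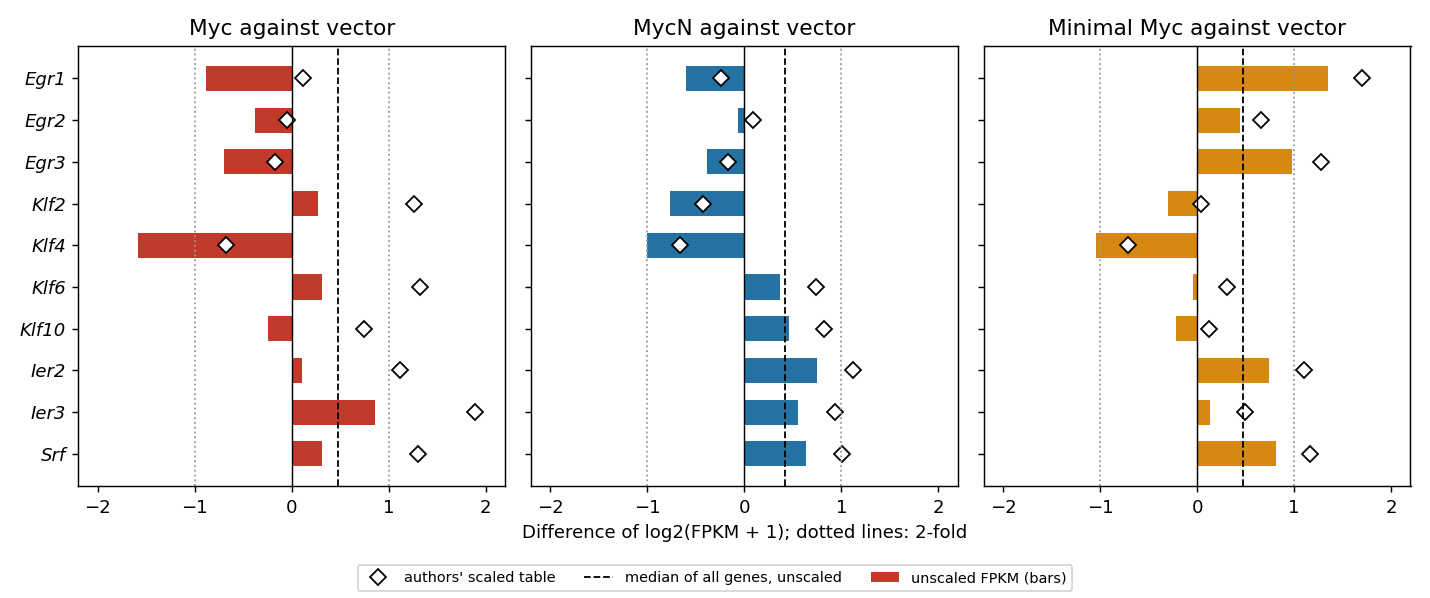
Differences of log2(FPKM + 1) from vector for the 10 genes in Myc, MycN and Minimal Myc. Bars show the unscaled table, open diamonds the authors' scaled table, the dashed line the median of all genes in the unscaled table, and dotted lines 2-fold. Klf4 lies below 0 in all 3 panels in both tables, while Egr1 lies above the dashed line in Minimal Myc alone, at 1.35.

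Srf, the factor that drives much of this response, was 23.0 FPKM in Myc, 29.2 in MycN, 33.1 in Minimal Myc and 18.4 in vector. All 3 cultures with a Myc protein were above vector, by 1.25-fold, 1.59-fold and 1.79-fold. The differences were 0.31, 0.64 and 0.81. Relative to all genes they were -0.17, 0.22 and 0.34, so that Srf in Myc lay below the median of all genes. The second table kept all 3 above vector (1.31, 1.01 and 1.16) but put Myc highest, at 47.0 scaled FPKM against 42.5 in Minimal Myc. Among the other 8 genes past the filter Ier2 was closest to Srf in pattern, at a distance of 0.24 (Euclidean, over the 3 log2 differences from vector).

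The upstream sequences of 6 of the 10 genes were examined for the elements that this pathway and Myc are known to bind, using RefSeq windows of the mouse build GRCm38.p6. The expression files name another build, mm9, so the windows were matched by symbol and not by position. Egr2, Klf2, Klf4, Klf6, Ier3 and Srf matched, and Egr1, Egr3, Klf10 and Ier2 did not. The search covered the 250 bases before each annotated start on both strands, for the CArG box, the E-box CACGTG that Myc and Max bind, the Ets core CCGGAA, an Egr motif GCGNGGGCG, the GC box GGGCGG and the cyclic AMP element TGACGTCA. The 4 stretches below hold the CArG boxes of Srf and Egr2 and the E-boxes of Klf4 and Klf6, with these motifs in capitals.
Srf, chr17:46556203-46556282, minus strand: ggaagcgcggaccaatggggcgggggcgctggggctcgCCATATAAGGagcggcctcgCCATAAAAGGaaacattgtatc
Egr2, chr10:67537729-67537808, plus strand: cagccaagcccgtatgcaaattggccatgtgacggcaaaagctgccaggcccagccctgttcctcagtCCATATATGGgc
Klf4, chr4:55532626-55532725, minus strand: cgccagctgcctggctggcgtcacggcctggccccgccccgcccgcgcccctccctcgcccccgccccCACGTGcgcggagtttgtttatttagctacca
Klf6, chr13:5861379-5861478, plus strand: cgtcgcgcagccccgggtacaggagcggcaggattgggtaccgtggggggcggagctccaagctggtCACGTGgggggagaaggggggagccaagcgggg

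A CArG box is rare among promoters, in 482 of 32851 windows (1.47%). Srf holds 2, with first bases at -82 and -62 from its start, and Egr2 holds one at -72 from the start shown. Egr2 has 5 annotated starts in the table, and 4 of their windows hold a CArG box. Srf and Egr2, both with the box, were both highest in Minimal Myc in the unscaled table, as were 35.8% of all genes. Their order differed among the other libraries. In the second table Srf was highest in Myc, while Egr2, which is under the filter, was highest in Minimal Myc. A link between the box and these levels was not tested. The E-box occurs in 6.02% of windows and was found in Klf4 at -182, in Klf6 at -43 and at 1 start of Egr2 at -27. Klf4 was lower in all 3 cultures with a Myc protein than in vector, while Klf6 spanned 1.34-fold across the libraries of the unscaled table. In the second table Klf6 spanned 2.55-fold and Klf4 1.69-fold. Egr2 spanned 4.15-fold in the unscaled table and 2.61-fold in the second. Whether the E-boxes bear on these levels was not tested. The Ets core (12% of windows) was found in Srf at -122 and at 1 start of Egr2. An Egr motif (4.7% of windows) was found in Srf, Klf2 and Klf4, in each overlapping a GC box, a motif of 32.7% of windows that all 6 genes hold. The cyclic AMP element (1.55% of windows) was found in none. A match is a run of letters and not a measured binding site.

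**Figure D3:**
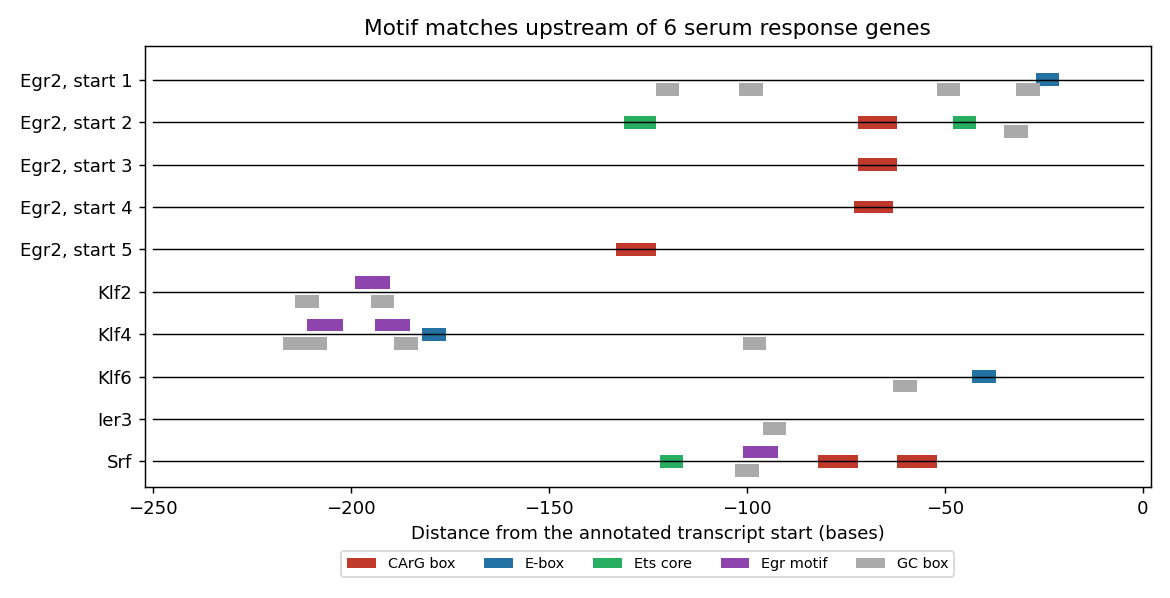
Matches of 5 motifs in the 250 bases before each annotated start of 6 genes, with distance from the start in bases on the x axis and 1 line per start (5 for Egr2). Red boxes are CArG boxes, at -82 and -62 in Srf, and blue boxes are E-boxes, at -182 in Klf4 and -43 in Klf6.

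Partners and relatives of the 10 genes were then followed by list. These lists were chosen with earlier results of these data known. Their counts and shares beside those of all genes are therefore descriptions and not tests. Nab1 and Nab2, corepressors that bind Egr proteins and limit them, were both highest with Minimal Myc in the unscaled table. Nab1 was 14.5 FPKM in Myc, 13.9 in MycN, 20.2 in Minimal Myc and 7.05 in vector. Nab2 was 33.9 FPKM in Myc, 21.4 in MycN, 58.0 in Minimal Myc and 25.6 in vector. Both were counted at 2-fold above vector in Minimal Myc (13.6% of all genes), and neither in Myc (11.2%) or MycN (7.65%). Nab1 in Myc was nonetheless 2.06-fold above vector in FPKM. In the second table Nab1 was higher in Myc than in Minimal Myc, with differences from vector of 1.93 and 1.74, and Nab2 remained highest in Minimal Myc (1.51, against 1.40 in Myc). In Minimal Myc they stood at 0.92 and 0.68 relative to all genes. Egr4 was at or below 0.00781 FPKM in every library.

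Of 6 Srf cofactors 5 were past the filter, and Myocd, the cardiac and smooth muscle cofactor, was at most 0.0466 FPKM. Elk1, a ternary complex factor activated by Erk, was 8.57 FPKM in Myc, 12.2 in MycN, 14.4 in Minimal Myc and 6.35 in vector. It was the 1 of 5 counted at 2-fold above vector, in Minimal Myc, where 13.6% of all genes were. Elk4, another such factor, was 8.16 FPKM in Myc, 7.05 in MycN, 5.69 in Minimal Myc and 4.02 in vector, and in Myc its difference of 0.87, or 2.03-fold in FPKM, was not counted. Elk3, the third of this family, was 22.3 FPKM in Myc, 20.5 in MycN, 23.5 in Minimal Myc and 17.5 in vector. The medians of the 5 lay within 0.10 of the median of all genes in each comparison with vector. Of the 13 other Klf genes 7 were past the filter and 0 were counted at 2-fold above or below vector in any of the 3 comparisons. Of all genes, 11.2% were higher and 1.56% lower in Myc, 7.65% and 1.86% in MycN, and 13.6% and 1.68% in Minimal Myc. In FPKM, Klf7 in MycN was 2.22-fold above vector and Klf16 in Myc 2.10-fold. Klf7 was 8.73 FPKM in MycN, against 3.93 in vector. Klf16 was 14.9 FPKM in Myc, 13.3 in MycN, 13.9 in Minimal Myc and 7.07 in vector. Klf11, a close relative of Klf10, was 3.62 FPKM in Myc, 4.33 in MycN, 1.93 in Minimal Myc and 2.68 in vector. Both genes were highest in MycN in the unscaled table. So were 4 of the 7 other Klf genes, Klf11 included, or 57.1% against 29% of all genes. In the second table all 7 were highest in Myc, against 83.6% of all genes, and Klf10 was highest in MycN. Ier5, of the Ier family, was 24.6 FPKM in Myc, 29.8 in MycN, 44.6 in Minimal Myc and 16.8 in vector, a difference of 1.36 in Minimal Myc. Ier5l was 26.3 FPKM in Myc, 31.0 in MycN, 39.8 in Minimal Myc and 29.2 in vector.

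Other immediate early genes had their own orders. Of 9 AP-1 genes, which encode the Fos and Jun dimer and related factors, Junb was the 1 counted at 2-fold above vector in the unscaled table. It was 181 FPKM in MycN against 81.3 in vector, a comparison in which 7.65% of all genes were higher. In Myc and Minimal Myc 0 were higher (11.2% and 13.6% of all genes). None of the 9 was counted as lower in Myc (1.56%), MycN (1.86%) or Minimal Myc (1.68%). Fos, at 1.65 FPKM in Myc, 7.99 in MycN, 3.93 in Minimal Myc and 3.98 in vector, was over 2-fold below vector in Myc and over 2-fold above it in MycN in FPKM, and was not counted. The same held for Fosb in Myc, at 0.602 FPKM against 1.30 in vector. Maff, a small Maf factor, was 15.8 FPKM in Myc, 12.3 in MycN, 33.4 in Minimal Myc and 24.5 in vector, which in the unscaled table put Minimal Myc first and vector second, as for the Egr genes. Fosl1 was 26.2 FPKM in Myc, 15.5 in MycN, 26.97 in Minimal Myc and 13.8 in vector. In the second table Junb differed from vector by 1.145 with Myc, 1.52 with MycN and 1.14 with Minimal Myc. In the same order Fosl1 differed by 1.88, 0.52 and 1.27, and Maff by 0.38, -0.58 and 0.79. There, 78.5%, 27.4% and 33.7% of all genes were at least 2-fold higher than vector. Of 20 further immediate early genes past the filter, 10 had their highest level in Minimal Myc, or 50% against 35.8% of all genes, and 1 had it in Myc, or 5% against 29.6%. In the second table, 8 were highest in Minimal Myc, or 40% against 9.24% of all genes, and 10 in Myc, or 50% against 83.6%. Against vector, 1 of the 20 was counted at 2-fold higher in Myc (11.2% of all genes) and 4 lower (1.56%). In MycN 2 were higher (7.65%) and 5 lower (1.86%), and in Minimal Myc 2 were higher (13.6%) and 0 lower (1.68%). Ptgs2, the inducible prostaglandin synthase, was 44.5 FPKM in Myc, 16.9 in MycN, 179 in Minimal Myc and 70.6 in vector. Ctgf, a matricellular Srf and Yap target, was 16.8 FPKM in Myc, 31.0 in MycN, 68.5 in Minimal Myc and 119 in vector. Nr4a2, a nuclear receptor gene, was 8.18 FPKM in Myc, 2.0 in MycN, 8.05 in Minimal Myc and 11.7 in vector, lowest in MycN.

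Genes that feed back on Erk signalling and mRNA turnover, 13 in all, had 0 members counted at 2-fold higher than vector in Myc (11.2% of all genes) and 2 lower (1.56%). In MycN 1 was higher (7.65%) and 2 lower (1.86%), and in Minimal Myc 0 were higher (13.6%) and 2 lower (1.68%). Dusp4, a phosphatase that inactivates Erk in the nucleus, was 14.7 FPKM in Myc, 9.52 in MycN, 11.6 in Minimal Myc and 44.3 in vector. In the unscaled table, like Klf4, it was at least 2-fold below vector in all 3 cultures. In the second table Dusp4 differed from vector by -0.55 with Myc, -1.76 with MycN and -1.51 with Minimal Myc, while Klf4 was 2-fold lower in none. Dusp2 was 3.08 FPKM in Myc, 8.71 in MycN, 0.270 in Minimal Myc and 1.61 in vector. Spry4, a feedback inhibitor of receptor signalling, was 0.734 FPKM in Myc, 0.645 in MycN, 2.63 in Minimal Myc and 2.71 in vector.

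The next list, like the others, was chosen with earlier results of these data known, so its shares are not a test. Of 16 contractile and actin genes that Srf is known to drive, 12 had their highest level in Minimal Myc, or 75% against 35.8% of all genes. In the authors' second table this was 4 of 16, or 25% against 9.24% of all genes. MycN held the lowest level of 9 of the 16, or 56.2% against 11.8% of all genes, and of 6 in the second table, or 37.5% against 6.17%. Myl9, a myosin light chain, was 82.9 FPKM in Myc, 3.30 in MycN, 59.2 in Minimal Myc and 33.3 in vector. Tagln, an actin-binding protein, was 133 FPKM in Myc, 29.4 in MycN, 226 in Minimal Myc and 147 in vector. Actg2, a smooth muscle actin, was 7.18 FPKM in Myc, 4.09 in MycN, 3.48 in Minimal Myc and 16.9 in vector, highest in vector as Klf4 was. Srf was 29.2 FPKM in MycN, against 18.4 in vector, a difference of 0.22 relative to all genes. Whether the Srf level bears on the low values of these genes in MycN was not tested. The median of the 16 was -0.30 with Myc, -0.76 with MycN and 0.11 with Minimal Myc, relative to all genes.

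**Figure D4:**
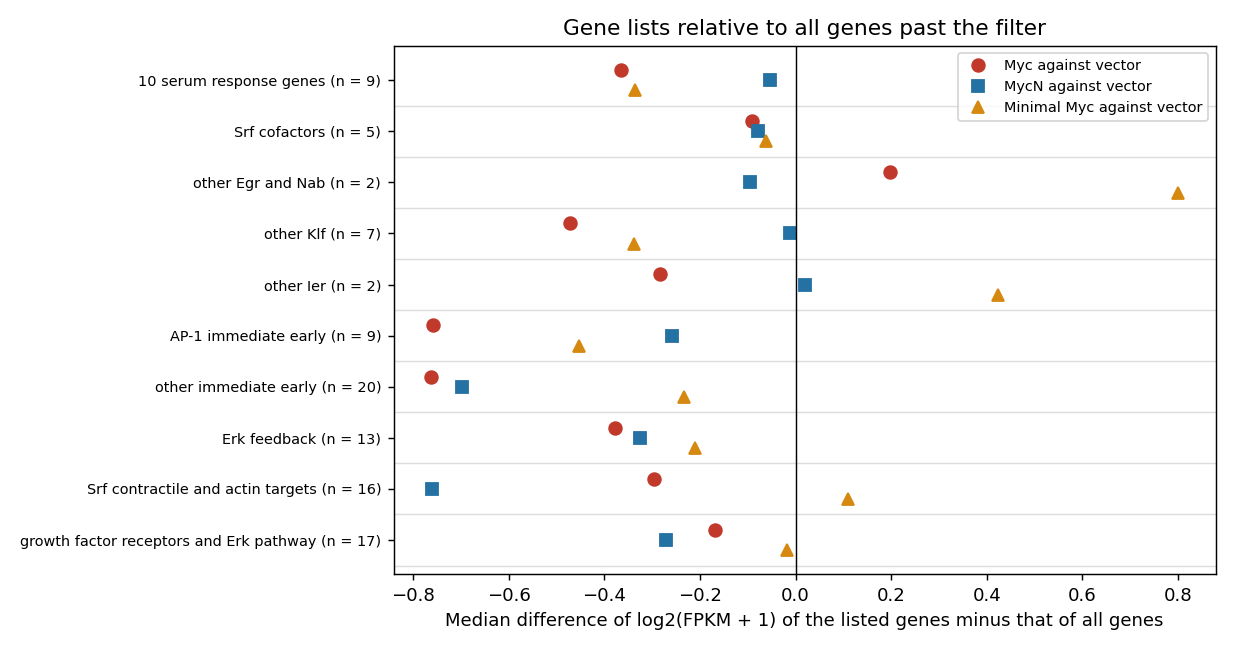
Median difference from vector of each gene list minus the median of all genes, on the log2(FPKM + 1) scale, with the number of listed genes past the filter. Circles are Myc, squares MycN and triangles Minimal Myc. The contractile and actin list runs from -0.76 in MycN to 0.11 in Minimal Myc.

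Among 10793 other genes with named symbols and no value of 0, those closest in pattern were found by the same distance over the 3 differences from vector. For Egr1 they were AW551984, at a distance of 0.17, and Ereg, a growth factor that binds the Egf receptor, at 0.31. Ereg was 10.7 FPKM in Myc, 9.46 in MycN, 46.2 in Minimal Myc and 17.0 in vector. Within a distance of 0.2 Egr1 had 1 gene and Egr3, Klf2 and Klf4 had 0, while Klf6 had 202, Srf 94, Ier3 58, Ier2 20 and Klf10 16. The closest to Klf4 were Fam214b at 0.25 and Rusc2 at 0.34. Those closest to Klf2 were Loxl3 at 0.23 and Etv4, an Ets factor, at 0.24, and those closest to Egr3 were Csgalnact1 at 0.23 and Sirpa at 0.24. With 4 libraries such likeness describes these cultures and is shared by many genes where a gene varies little.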

How the data were processed

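Poly(A) RNA from 4 cultures was sequenced with strand-marking libraries, per the labels' protocols. TopHat2 2.0.11, Cufflinks 2.2.0 and mm9 were used, per the submitters' processing notes, without saying for what. FPKM were deposited by the authors in 2 tables, each with 26608 rows. In the second, each library was multiplied by 1 factor (2.04 for Myc, 1.30 for MycN, 1.28 for Minimal Myc, 1 for vector). The 32 NanoString rows were left out and hold 0 of the 10 genes. Identical rows of a gene counted once and differing rows were added up. Small RNA genes and genes averaging under 1 FPKM were dropped. Differences of log2(FPKM + 1) were computed with Python 3.11.15 and pandas 2.3.3 and counted at 2-fold, a step tested on simulated data. FPKM carry no depth, so no interval is given. Named genes were the 10 genes, up to 3 per list with the largest difference from vector, and the 2 closest in pattern. The exceptions are Egr4, Myocd, Lum, Fos and Fosb, chosen after their values were seen. Members and lists were chosen with earlier results of these data known. Alternatives were another pseudocount, no filter, the scaled table, centring on the median difference, and the highest row per gene.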

Additional observations from a re-analysis of the deposited data

How the results depend on the processing

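No paired analysis was possible because each group is 1 library, so leaving out a replicate does not apply either. Without the filter, or with the highest row of each gene, all counts of the 10 genes and the 2-fold calls of single genes were the same. With a pseudocount of 0.1 the count lower in Myc than in vector was 2 in place of 1, and the count higher in Minimal Myc than in vector was 2 in place of 1, both through Egr3. After subtraction of the median of all genes, 3 were lower in Myc than in vector, 3 lower in MycN than in vector, 0 higher in Minimal Myc than in vector and 0 lower in MycN than in Myc. In the authors' scaled table, 5 were higher and 0 lower in Myc than in vector, 2 higher and 0 lower in MycN, 4 higher and 0 lower in Minimal Myc, and 3 lower in Minimal Myc than in Myc. Of all genes, 78.5%, 27.4% and 33.7% were then higher than vector, and 0.498%, 1.25% and 1.05% lower. In Minimal Myc against Myc 17.7% of all genes were then lower. None of the 10 genes counted at 2-fold in the unscaled table with a pseudocount of 1 had the other sign in the scaled table. The subtraction, of at most 0.47, and the other alternatives could not turn the sign of such a gene. The calls of single genes changed in 16 of 54 values with the scaled table, 6 with the subtraction and 2 with the pseudocount. The subtraction moves all genes of a comparison by 1 amount, and the scaling moves weakly expressed genes less. Depth is unknown, which limits Egr2 and Egr3 most, the genes of lowest level.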

Other observations

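Genes upstream of this response were also read. Of 17 growth factor receptor and Erk pathway genes past the filter, 2 were counted at 2-fold higher than vector with Myc (11.2% of all genes), 1 with MycN (7.65%) and 4 with Minimal Myc (13.6%). None was counted as lower in any of the 3 (1.56%, 1.86% and 1.68% of all genes). Egfr, the receptor of Egf and Ereg, was 16.0 FPKM in Myc, 2.23 in MycN, 8.0 in Minimal Myc and 2.99 in vector. Rps6ka1, a kinase that Erk activates, was 11.2 FPKM in Myc, 16.0 in MycN, 9.05 in Minimal Myc and 3.02 in vector. Rps6ka3, its relative, was 18.8 FPKM in Myc, 13.1 in MycN, 23.9 in Minimal Myc and 8.97 in vector. In the unscaled table Egfr was highest in the Myc library, in which Egr1 was lowest.

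Among fibroblast markers, Thy1, a surface glycoprotein, was like the Egr genes highest with Minimal Myc and next in vector in the unscaled table, at 115 FPKM in Myc, 95.5 in MycN, 354 in Minimal Myc and 208 in vector. Dcn, the matrix proteoglycan decorin, was 330 FPKM in Myc, 135 in MycN, 247 in Minimal Myc and 81.6 in vector, and Col3a1 was 63.0, 115, 74.1 and 35.3 FPKM in the same order.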
